A study of Mus musculus with 73 samples.

Results

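Whole adrenals of control XX mice were compared at 78 weeks (the old adrenals) and at 52 weeks, with 4 libraries at each age out of the 73 in the series (8 libraries in all). The members were chosen by their labels, as the libraries given as female, WT and 78 weeks or 52 weeks, whose titles are PRVL82 to PRVL85 and PRVL42 to PRVL45. Both groups carried the control genotype of a study of Znrf3, a ubiquitin ligase that dampens WNT signalling, in which the gene was deleted in steroidogenic cells by a Cre recombinase driven by Sf1 regulatory sequences in the knockout arm (Znrf3 cKO, Sf1-Cre;Znrf3F/F). Mice were kept on a C57Bl/6 background, and a membrane reporter at the Rosa26 locus (mTmG) was bred into the lines used without flow cytometry. Control XX adrenals at 4, 6 and 12 weeks (4 libraries each) are given for orientation. The libraries were prepared from polyadenylated RNA of the whole gland, so cortex, medulla, capsule, vessels, immune cells and any attached fat were measured together, and fewer cells of a type cannot be told apart from less RNA per cell.

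The adrenal cortex makes mineralocorticoids in the outer zona glomerulosa and glucocorticoids in the zona fasciculata below it, from cholesterol, and is renewed from cells under the capsule. The young female mouse also has an inner X-zone, which regresses later in life. The medulla is made of chromaffin cells of neural crest origin, which store catecholamines with chromogranins in dense-core granules. In ageing mice the subcapsular cortex is known to collect spindle-shaped cells with gonadal features, and mast cells are known to gather in the adrenal of some strains.

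Each value is a level in RPKM, reads normalised to transcript length and library size, rescaled by the median of ratios over the 8 libraries. Libraries are numbered 1 to 4 within an age in the order of their titles, and per-library values follow that order. Depth, recovered from the steps between low RPKM values, was 34.1 to 49.7 M reads per library at 78 weeks and 30.7 to 45.9 M reads at 52 weeks. The scaling factors were 1.03 to 1.06 at 78 weeks and 0.954 to 0.970 at 52 weeks. Log2 levels correlated at 0.973 to 0.991 between libraries of 1 age and at 0.918 to 0.936 between ages, across genes, which are not independent replicates. Xist, the RNA of the inactive X chromosome, lay at 53.0 to 59.8 RPKM at 78 weeks and 37.6 to 68.8 RPKM at 52 weeks, and the Y-linked Ddx3y did not exceed 0.0245 RPKM at 78 weeks and 0.0532 RPKM at 52 weeks. Znrf3 itself had 3.99, 4.25, 3.70 and 3.07 RPKM at 78 weeks, against 3.54, 3.67, 3.71 and 3.38 RPKM at 52 weeks (limma, adjusted p = 0.649). The labels do not say that each library is a separate mouse, so the p-values measure only the spread between these libraries.

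Age and the number range of the libraries cannot be told apart. All 52-week libraries of the series carry numbers from PRVL1 to PRVL49, and all 78-week libraries carry numbers from PRVL50 upwards. Across the whole series, 35 genes were below 0.5 RPKM in each of 33 libraries of the lower range and above 5 RPKM in each of 36 libraries of the upper range, and 34 of them are pseudogenes. No gene showed the opposite pattern. Gapdh-ps15, a processed pseudogene of Gapdh, had 98.7 to 158 RPKM at 78 weeks, against 0 to 0.0689 RPKM at 52 weeks, and no library of either range crossed over, at whatever age or genotype. Gapdh itself had 42.0 to 68.6 RPKM at 78 weeks and 51.0 to 65.2 RPKM at 52 weeks, with the ages overlapping. Bc1, a short noncoding RNA of neurons, was the reverse in the control XX groups, with 10.2, 5.68, 8.21 and 6.52 RPKM at 78 weeks, against 210.0, 146, 216 and 293 RPKM at 52 weeks. Bc1 ranged from 2.56 to 37.2 RPKM over the upper number range and from 15.7 to 973 RPKM over the lower, so its level moved in part with the number range in the other libraries as well.

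**Figure D1:**
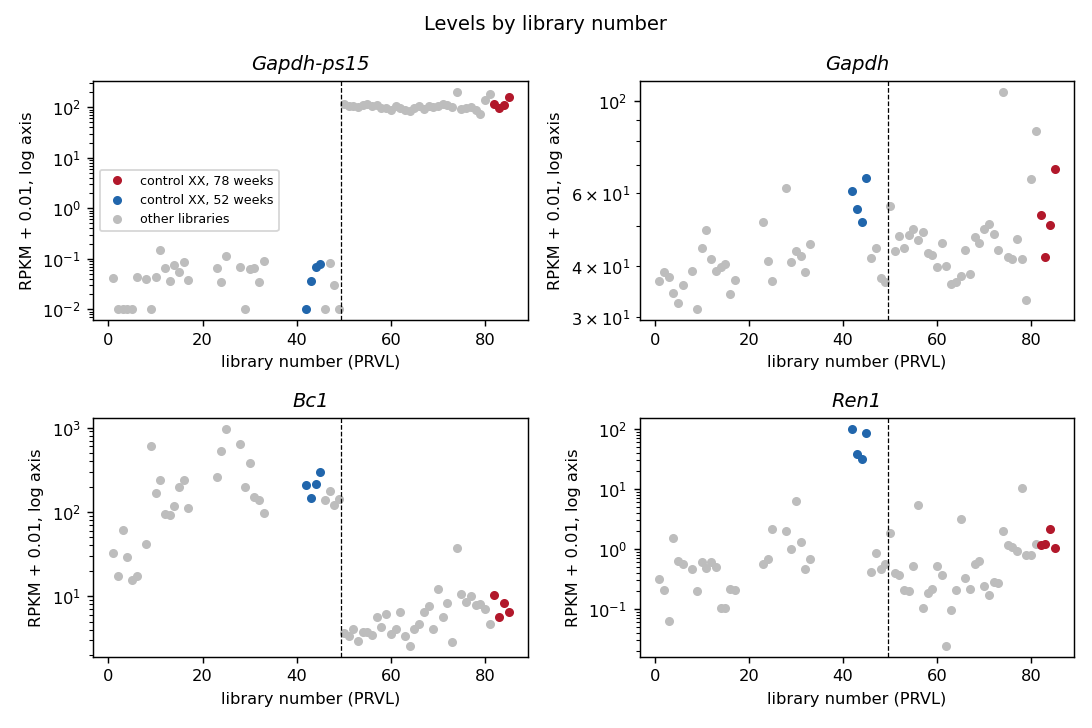
Levels of 4 genes (RPKM + 0.01, log axis) against the library number in the title, 1 point per library, with control XX adrenals at 78 weeks in red, control XX adrenals at 52 weeks in blue and the other libraries in grey. The dashed line parts numbers up to 49 from those of 50 and above: Gapdh-ps15 steps up at that line whatever the group, Bc1 is mostly lower beyond it, Gapdh shows no step, and Ren1 is above 30 RPKM in the 4 blue points alone.

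Transcript length moved with the age difference too. Across 13573 protein-coding genes the log2 difference between 78 and 52 weeks correlated with length at a Spearman rho of 0.33, as a description over genes that share the same libraries. Among the 3396 shortest of these genes, up to 2674 bases long, 12.2% were called higher and 40.9% lower at 78 weeks. Among the 3394 longest, from 6689 bases, 42.1% were called higher and 8.43% lower. Genes of ribosomal proteins had 0 of 80 called higher and 62 of 80 called lower at 78 weeks, with a median log2 difference of -0.58 (a group chosen after its values were seen). The part of transcript length and number range in the age difference was not tested, and 2 further fits accompany the results. The first is a fit over 37 control libraries of both sexes with terms for age, sex and number range. It takes the sex difference to be equal at all ages. At the younger ages all control males are in the lower range and all control females in the upper, and at 78 weeks both are in the upper. The range term thus rests on how the sex difference at 78 weeks departs from that at younger ages. It cannot part number range from a sex difference that changes with age. Changes confined to 78-week XX adrenals enter its age difference again and come out enlarged. The second is 78 weeks against 12 weeks, 2 groups that both have numbers from PRVL50 upwards. Both reuse the 78-week libraries and are no independent evidence.

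At an adjusted p under 0.05, 10176 of 19951 tested genes (51.0%) differed between 78 and 52 weeks, 5148 higher (25.8%) and 5028 lower (25.2%) at 78 weeks, by limma with Benjamini-Hochberg adjustment. The median log2 difference over all tested genes was 0.01. The balance of the calls rested on the scaling. With every library brought to a common sum, 9306 genes were higher and 2092 lower, and the median moved to 0.27. On the deposited scale, 6673 were higher and 3774 lower, with the median at 0.10. In the fit with a term for the number range, 2923 genes (14.7%) were called, 1756 higher (8.80%) and 1167 lower (5.85%). Of the 5148 rises, 1430 were called higher there as well and 8 lower, and of the 5028 falls, 948 were called lower there as well and 1 higher. Between 78 and 12 weeks, 2138 of 19686 tested genes (10.9%) differed, 772 higher (3.92%) and 1366 lower (6.94%) at 78 weeks. In the 78 against 52 weeks comparison the 4 libraries of one age lay wholly above or below the 4 of the other in 9461 genes (47.4%), 4747 of them higher (23.8%) and 4714 lower (23.6%). Counts of list members are read against these shares, and every direction below refers to the median-of-ratios scale unless another is named.

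Genes of gonadal-type cells, where called, were higher at 78 weeks. Of 20 genes listed for gonadal-like cells of the subcapsular cortex, 17 were measured well enough to test. Of these 9 rose, 0 fell and 8 did not pass, with a median log2 difference of 0.70 beside 0.01 for all genes. The 52.9% called stood near the 51.0% of all genes, and 7 of 17 did not overlap between ages, beside 47.4% of all genes. What differed was the direction, as 25.8% of all genes were called higher and 25.2% lower. The untested genes were Fshr, Cyp19a1 and Amh. The transcription factor Gata4, which marks gonadal soma and is nearly silent in the normal adult adrenal cortex, had 7.79, 6.85, 7.19 and 3.74 RPKM at 78 weeks, against 0.962, 3.76, 1.68 and 0.318 RPKM at 52 weeks. Its means were 6.39 ± 1.81 and 1.68 ± 1.49 RPKM (SD, n = 4 each), a 3.81-fold difference with a log2 difference of 1.59 ± 0.37 (SE) and adjusted p = 0.00682 by limma. The highest 52-week library, the second, just overlapped the lowest 78-week library, the fourth. Gata4 lies on chr14:63198922-63271692 (mm10, as are the gene positions that follow). At 4, 6 and 12 weeks it stayed between 0.161 and 0.826 RPKM in every library.

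Foxl2, a transcription factor of ovarian granulosa cells on chr9:98955288-98958543, had 6.47, 4.44, 4.59 and 2.56 RPKM at 78 weeks, against 0.523, 2.03, 0.668 and 0.0212 RPKM at 52 weeks (adjusted p = 0.00295). Amhr2, the receptor of anti-Müllerian hormone on chr15:102445367-102454633, had 7.79, 7.32, 7.37 and 4.30 RPKM at 78 weeks, against 1.11, 3.13, 1.14 and 0.361 RPKM at 52 weeks (adjusted p = 0.00179). Wt1, a transcription factor of the urogenital ridge and of subcapsular progenitors, had 3.10, 2.64, 2.201 and 1.94 RPKM at 78 weeks, against 0.628, 1.91, 0.656 and 0.312 RPKM at 52 weeks (adjusted p = 0.00837). For these 3 genes all 78-week libraries lay above all 52-week libraries and in each of them the fourth library was the lowest at 78 weeks and the second was the highest at 52 weeks. Their 12-week means were 0.233 ± 0.152, 0.226 ± 0.102 and 0.202 ± 0.0991 RPKM (SD, n = 4) in the order just given. The oestrogen receptor gene Esr1 rose to 2.30 ± 0.462 RPKM at 78 weeks, against 1.38 ± 0.193 RPKM at 52 weeks (adjusted p = 0.00888), but was not called under the number-range term (adjusted p = 0.121) or with the length trend removed (0.179). Insl3, a hormone of testicular Leydig cells, reached 0.802 ± 0.258 RPKM at 78 weeks, against 0.175 ± 0.118 RPKM at 52 weeks (adjusted p = 0.00339), but was at 0.852 ± 0.387 RPKM at 4 weeks, so the 78-week level was no higher than that of young adrenals.

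Lhcgr and Cyp17a1 were highest in the second and the third old adrenals. Lhcgr, the luteinising hormone receptor, had 1.38, 9.46, 23.3 and 0.485 RPKM at 78 weeks, against 0.142, 0.117, 0.0455 and 0.0316 RPKM at 52 weeks. The second and the third 78-week libraries carried most of it, although all 4 exceeded the 52-week libraries. The means differed 103-fold and the log2 difference was 2.34 ± 0.78 (SE, limma adjusted p = 0.0329), but the call ended when any 1 of 6 libraries was left out, with adjusted p between 0.0501 and 0.0826. Lhcgr was also not called with voom weights on recovered reads (adjusted p = 0.0993) or by limma without the filter on low values (0.0747). Cyp17a1, the steroid 17-hydroxylase that the mouse adrenal normally lacks after birth, had 0.711, 26.8, 77.4 and 0.817 RPKM at 78 weeks, against 0.797, 0.255, 0.228 and 0.414 RPKM at 52 weeks. The same 2 libraries stood apart, the other 2 lay with the 52-week adrenals, and the difference did not pass (adjusted p = 0.0828), except when the first or the fourth 78-week library was left out (0.0302 and 0.0342). Inha, the inhibin alpha subunit, had 25.6, 38.8, 114 and 25.9 RPKM at 78 weeks, against 24.9, 19.8, 21.1 and 19.2 RPKM at 52 weeks (adjusted p = 0.0909), again highest in the third library, without which it was called higher (0.046). Hsd17b1, which reduces oestrone, had 2.43, 2.33, 4.82 and 1.20 RPKM at 78 weeks, against 0.826, 1.43, 1.04 and 1.21 RPKM at 52 weeks. It was called higher (adjusted p = 0.0431) and lost the call when any 1 of 7 libraries was left out.

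The gonadal list kept its direction in the accompanying fits. With the term for the number range 10 of 17 members were called higher and 0 lower, and between 78 and 12 weeks 7 of 17 were called higher and 0 lower. The range term draws on the 78-week XX libraries again, through their difference from 78-week males. Its calls and larger log2 differences are therefore no added support for these rises. Gata4, Foxl2, Amhr2 and Wt1 were called in both, with log2 differences of 3.0, 3.15, 3.196 and 1.93 under the number-range term and 2.22, 2.12, 2.63 and 1.52 between 78 and 12 weeks. Leaving out 1 library at a time gave 6 to 10 rises and 0 falls, a common sum gave 12 rises and 0 falls, and removal of the length trend gave 8 rises and 1 fall. No member was lower at an unadjusted p under 0.05 either. Of 12 ovary genes followed as markers of attached tissue, 6 were measured well enough to test, and the 2 that rose, Foxl2 and Lhcgr, stand in both lists. The oocyte genes Zp2, Zp3 and Bmp15 did not reach the level tested. The oocyte genes Gdf9 and Oosp1 did reach it, and neither was called.

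**Figure D2:**
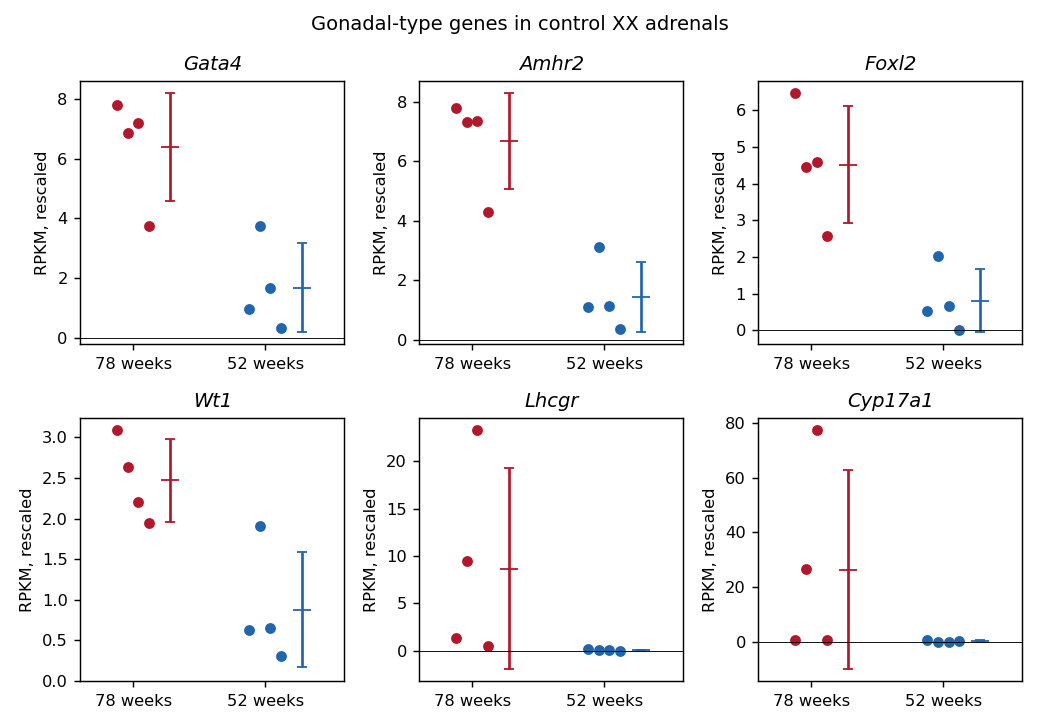
Levels of 6 genes of gonadal-type cells (RPKM, rescaled) in control XX adrenals at 78 weeks (red) and 52 weeks (blue), 1 point per library in library order, with the mean and SD beside the points (n = 4 each). Gata4, Amhr2, Foxl2 and Wt1 have higher means at 78 weeks with all 4 libraries raised, the lowest Gata4 library (3.74 RPKM) meeting the highest at 52 weeks (3.76 RPKM), whereas Lhcgr and Cyp17a1 are high in the second and the third.

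Of the 20 genes on the gonadal list, 14 have an entry in the RefSeq promoter table (build GRCm38.p6, 250 bases before the start and 50 after it), and only Amhr2 holds the site of steroidogenic factor 1 spelled CAAGGTCA, on either strand. That site occurs in 512 of all 32851 promoters in the table (1.56%). The Amhr2 promoter, chr15:102445117-102445416 on the plus strand, is shown because this receptor was raised in all 4 old adrenals, with the site, 232 to 225 bases before the start, in capitals.
Amhr2: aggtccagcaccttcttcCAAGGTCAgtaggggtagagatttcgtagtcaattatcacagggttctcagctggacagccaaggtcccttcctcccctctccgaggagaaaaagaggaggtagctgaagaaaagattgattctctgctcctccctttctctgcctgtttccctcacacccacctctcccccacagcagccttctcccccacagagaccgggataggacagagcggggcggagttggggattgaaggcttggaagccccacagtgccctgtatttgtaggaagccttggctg
None of the 9 steroidogenesis genes with an entry held the same letters, which says only that they are not in this window.

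Mast cell genes had the largest median log2 difference (2.80) of the lists and sub-lists followed, and were split off from the list of neutrophils and mast cells after its values were seen. All 7 mast cell genes were higher at 78 weeks, and in all 7 the ages did not overlap, beside 47.4% of all genes. Mast cells are tissue-resident immune cells that store proteases and histamine in granules and carry the high-affinity receptor for immunoglobulin E. Summed over the 7 genes, the level was 131, 30.9, 44.8 and 74.5 RPKM at 78 weeks, against 1.89, 5.12, 4.29 and 4.00 RPKM at 52 weeks. The lowest old adrenal, the second, still stood well above the highest 52-week adrenal.

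The mast cell chymase Cma1 had 39.7, 8.69, 14.6 and 23.7 RPKM at 78 weeks, against 0.211, 1.40, 1.22 and 0.760 RPKM at 52 weeks, a 24.1-fold difference of means (log2 difference 3.43 ± 0.41, SE; limma adjusted p = 0.000226). Cpa3, mast cell carboxypeptidase, had 33.2, 9.22, 14.0 and 21.3 RPKM at 78 weeks, against 0.926, 1.47, 0.937 and 1.25 RPKM at 52 weeks (adjusted p = 0.000101). The order of the 4 old adrenals was the same in both, with the first old adrenal the highest and the second the lowest. The tryptases followed: Tpsb2 averaged 12.0 ± 6.91 RPKM at 78 weeks and 0.468 ± 0.238 RPKM at 52 weeks (SD, n = 4 each; adjusted p = 0.000181). Tpsab1 averaged 7.51 ± 5.83 RPKM at 78 weeks and 0.0308 ± 0.0280 RPKM at 52 weeks (adjusted p = 0.000596). These proteases are encoded by gene families, and their reads can be shared among close copies. Mcpt4, a second chymase, averaged 7.56 ± 7.11 and 0.748 ± 0.462 RPKM at 78 and 52 weeks (adjusted p = 0.00996).

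The receptor for immunoglobulin E moved with the proteases. Its alpha chain gene Fcer1a, not on the fixed list but among the 15 largest rises, had 15.2, 2.40, 5.29 and 12.4 RPKM at 78 weeks, against 0, 0.105, 0.204 and 0.104 RPKM at 52 weeks (adjusted p = 0.000707). Its beta chain gene Ms4a2 had 1.59, 0.414, 0.483 and 1.19 RPKM at 78 weeks, against 0.0491, 0.0373, 0.0722 and 0.0245 RPKM at 52 weeks (adjusted p = 0.00617). Kit, the receptor that mast cells need for survival, rose to 1.16 ± 0.308 RPKM at 78 weeks, against 0.490 ± 0.0549 RPKM at 52 weeks (adjusted p = 0.00325). Its ligand Kitl, made by stromal and endocrine cells, had 15.5, 20.8, 18.1 and 15.5 RPKM at 78 weeks, against 4.84, 4.47, 3.31 and 4.61 RPKM at 52 weeks (adjusted p = 1.04e-05), 4.05-fold higher. Kitl was already at 22.1 ± 5.49, 22.9 ± 5.20 and 18.3 ± 2.87 RPKM at 4, 6 and 12 weeks, so the 52-week value is the low one of the 5 ages.

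Mast cell genes did not rise steadily with age. The summed level averaged 66.3 RPKM at 4 weeks (34.6 to 99.2), 26.4 RPKM at 6 weeks (7.22 to 56.7) and 7.46 RPKM at 12 weeks (4.42 to 10.5). The 3 younger ages and the 78-week adrenals come from the upper number range and the 52-week adrenals from the lower. Under the number-range term 5 of the 7 were called higher, and between 78 and 12 weeks 5 of 7 were called higher. All 7 were called in each fit that left out 1 library. Speer4e and Speer4c, members of a repeated gene family whose reads can be shared, had the same order of old adrenals, with Speer4e at 12.2, 1.005, 2.10 and 9.30 RPKM at 78 weeks, against 0.0287, 0.180, 0.0905 and 0 RPKM at 52 weeks (adjusted p = 0.00738), and the chemokine gene Ccl8 had 12.7, 1.91, 2.35 and 11.2 RPKM at 78 weeks, against 0.361, 0.514, 0.227 and 0.608 RPKM at 52 weeks (adjusted p = 0.00673). The first and the fourth old adrenals were the highest for these as well.

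**Figure D3:**
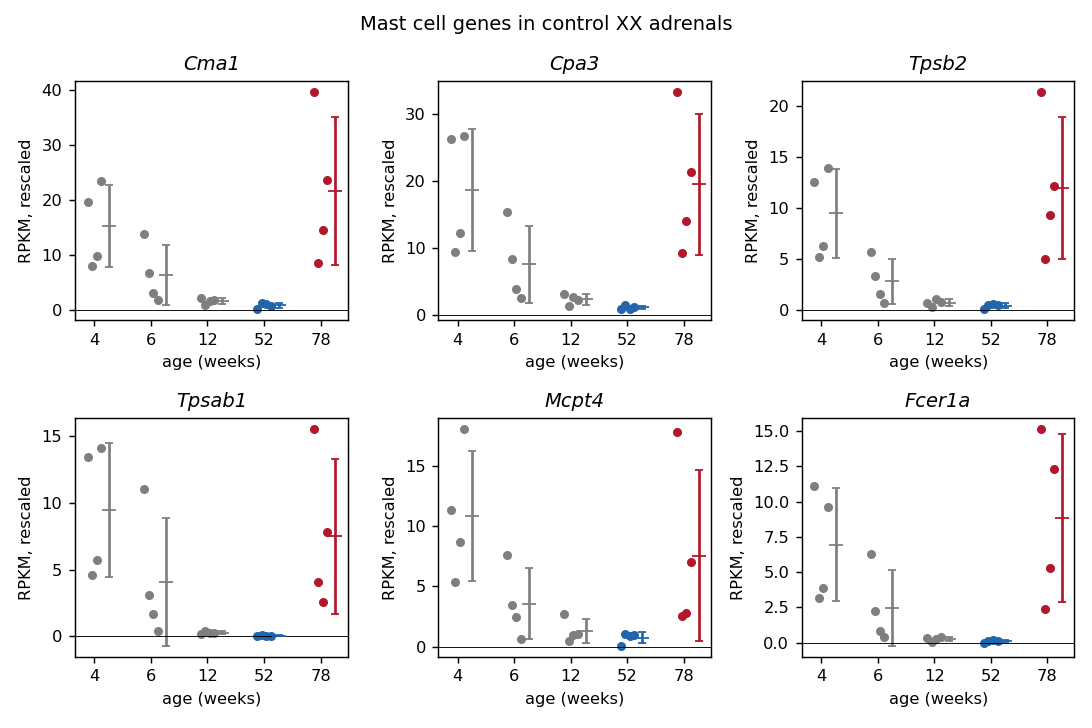
Levels of 6 mast cell genes (RPKM, rescaled) in control XX adrenals by age in weeks, 1 point per library with mean and SD (n = 4 per age), 78 weeks in red, 52 weeks in blue and younger ages in grey. Levels are low at 12 and 52 weeks and high in several libraries at 4 weeks and in the first and the fourth libraries at 78 weeks.

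Other blood cell genes differed between the old adrenals. None of 10 neutrophil genes was called by limma, 0 passed an unadjusted p under 0.05 and 0 were called with voom weights, yet their summed level was 6.52, 9.96, 4.49 and 698 RPKM at 78 weeks, against 6.45, 2.70, 4.01 and 10.5 RPKM at 52 weeks. The fourth old adrenal alone was high, for example in S100a9, a calcium-binding protein of neutrophil cytosol, with 3.06, 5.44, 1.80 and 354 RPKM at 78 weeks, against 3.53, 0.553, 1.78 and 5.62 RPKM at 52 weeks. Of 6 B cell genes 0 were called by limma and 0 with voom weights, while 4 were higher at an unadjusted p under 0.05, and their sum was 149, 2.68, 32.4 and 21.05 RPKM at 78 weeks, against 2.06, 5.61, 7.41 and 4.23 RPKM at 52 weeks. Here the first old adrenal was the highest, the third and the fourth also lay above every 52-week library, and the second lay within the 52-week range. Without that second library all 6 were called higher. Among them were Cd79a, a signalling subunit of the B cell receptor, with a limma adjusted p of 0.0105 and Ms4a1, which encodes CD20, with 0.00623. Under the number-range term, which draws on the 78-week XX libraries again, all 6 were called higher. Between 78 and 12 weeks 0 of the 6 were called higher. The full list of B and plasma cell genes had 3 of 21 called higher and 0 lower, 12 higher without the second 78-week library and 1 without the first or the fourth 52-week library. The constant region Igkc of antibody light chains, the most abundant of them, did not pass at 346, 241, 195 and 59.9 RPKM at 78 weeks, against 276, 519, 199 and 188 RPKM at 52 weeks (adjusted p = 0.36). Every library of both ages lay above the 12-week mean of 33.9 ± 16.6 RPKM. Markers of lymph node, among them the B cell gene Ms4a1, had 1 of 6 called higher and 1 lower, with 4 higher without the second 78-week library. Of 7 red blood cell genes 0 were called, and 0 passed an unadjusted p under 0.05.

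Most macrophage genes did not pass. Of 20 tested, 4 rose, 1 fell and 15 did not pass, beside 25.8% of all genes called higher. Under the number-range term 9 of 20 were higher and 0 lower, and between 78 and 12 weeks 2 were higher and 0 lower. The count of rises was 9 without the second 78-week library, 8 without the third, 9 on the deposited scale and 15 at a common sum. Adgre1, which encodes F4/80, had 5.75, 4.52, 5.52 and 7.92 RPKM at 78 weeks, against 1.344, 1.80, 1.48 and 1.87 RPKM at 52 weeks, a 3.65-fold difference (adjusted p = 9.65e-05). Csf1r, the receptor for the macrophage growth factor CSF1, averaged 11.5 ± 3.21 RPKM at 78 weeks and 6.05 ± 0.568 RPKM at 52 weeks (adjusted p = 0.00304). Neither gene overlapped between ages, and both were called under the number-range term as well. In contrast Aif1, which encodes IBA-1, was lower, at 3.54, 3.07, 3.12 and 3.46 RPKM at 78 weeks, against 5.46, 4.92, 3.75 and 4.33 RPKM at 52 weeks (adjusted p = 0.0125), and its log2 difference was 0.07 under the number-range term. The lysosomal marker Cd68 (13.2 ± 3.04 RPKM at 78 weeks, 12.9 ± 1.30 RPKM at 52 weeks, adjusted p = 0.95), C1qa (adjusted p = 0.709) and Itgam (adjusted p = 0.132) did not pass. The exons of Adgre1 and Csf1r summed to 3238 and 5774 bases, against 1532 bases for Aif1, and with the length trend removed 9 of 20 macrophage genes were called higher and 0 lower.

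Genes of phagocytic and multinucleated macrophages had 3 rises and 3 falls among 19 tested, with 1 rise without the first or the third 78-week or the third or the fourth 52-week library. The engulfment receptor Mertk rose to 6.62 ± 0.713 RPKM at 78 weeks, against 4.16 ± 0.758 RPKM at 52 weeks (adjusted p = 0.0035). Gpnmb, a glycoprotein of lipid-laden macrophages, had 2.59, 0.478, 4.38 and 0.565 RPKM at 78 weeks, against 0.177, 0.250, 0.160 and 0.207 RPKM at 52 weeks (adjusted p = 0.0386), with the first and the third old adrenals high, and lost the call when any 1 of 6 libraries was left out. Trem2 (adjusted p = 0.405), its adaptor Tyrobp (adjusted p = 0.415) and the metalloprotease Mmp12 (adjusted p = 0.871) did not pass. Cd63 and Cd9, tetraspanins found on many cell types, and Apoe, a lipid carrier that steroidogenic cells also make, fell: Cd63 averaged 33.3 ± 1.47 RPKM at 78 weeks and 55.8 ± 0.909 RPKM at 52 weeks (adjusted p = 1.77e-05). Of the signatures used in the study, the adrenal macrophage list had 23 rises and 23 falls of 98, but 46 rises and 4 falls at a common sum. The phagocytosis signalling list had 7 rises and 0 falls of 22 (31.8% called). The cytokine list had 18 rises and 20 falls of 90 (42.2% called), but 29 and 7 at a common sum. Of all genes 51.0% were called. By the study's methods the macrophage list holds leading genes of macrophage clusters in single-cell data from other mouse adrenals, and the other 2 were compiled from literature.

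Where antigen presentation genes moved they were lower, but not on every scale. Among 21 genes of MHC class II and antigen presentation 7 fell and 0 rose, beside 25.2% of all genes called lower. The 33.3% of the list called was below the 51.0% of all genes. At a common sum 1 fell and 3 rose, and 0 fell under the number-range term and between 78 and 12 weeks. B2m, the light chain of MHC class I, averaged 884 ± 69.2 RPKM at 78 weeks and 1444 ± 126 RPKM at 52 weeks (adjusted p = 0.000497), with a 12-week mean of 929 ± 137 RPKM. T and NK cell genes had 1 rise and 4 falls of 14, 35.7% called beside 51.0% of all genes. Gzma, a protease of cytotoxic lymphocytes, had 0.425, 0.590, 0.735 and 0.419 RPKM at 78 weeks, against 1.33, 1.38, 2.13 and 1.78 RPKM at 52 weeks (adjusted p = 0.000736), and Ncr1, an activating receptor of NK cells, 0.167, 0.303, 0.493 and 0.182 RPKM at 78 weeks, against 0.882, 0.801, 0.603 and 1.05 RPKM at 52 weeks (adjusted p = 0.00485). The T cell receptor subunit gene Cd3e was below the level tested, at 0.237 ± 0.0768 and 0.316 ± 0.124 RPKM at 78 and 52 weeks.

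Complement genes leaned the other way, with 6 rises and 1 fall of 19. C7, a subunit of the membrane attack complex, had 15.2, 30.1, 27.99 and 8.13 RPKM at 78 weeks, against 3.12, 4.71, 2.23 and 4.97 RPKM at 52 weeks, 5.42-fold higher (adjusted p = 0.00237). It was also called under the number-range term and between 78 and 12 weeks, when it averaged 4.94 ± 1.11 RPKM. The anaphylatoxin receptors C3ar1 (adjusted p = 0.00175) and C5ar1 (adjusted p = 0.0123) rose too. Among 39 interferon response genes 10 rose and 2 fell, all by less than 1 on the log2 scale, for example the RNA sensor Ifih1 at 4.16 ± 0.185 RPKM at 78 weeks and 2.60 ± 0.296 RPKM at 52 weeks (adjusted p = 0.000539). At a common sum 23 of the 39 rose and 1 fell, and under the number-range term 1 rose and 0 fell, with Ifih1 not called (adjusted p = 0.246). Neither 10 of 39 nor 6 of 19 stands far from the 25.8% of all genes called higher.

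The steroid pathway changed in few of its genes. Of 21 steroidogenesis genes 3 rose, 5 fell and 13 did not pass, 38.1% called beside 51.0% of all genes. At a common sum 9 rose and 1 fell, so the balance of the list turned with the scaling, and 2 fell without the second 78-week library or without the third or the fourth 52-week library. Aldosterone synthase Cyp11b2, on chr15:74851010-74856318, had 499.5, 592, 559 and 778 RPKM at 78 weeks, against 150.2, 179, 323 and 202 RPKM at 52 weeks. The ages did not overlap, the means differed 2.84-fold and the log2 difference was 1.54 ± 0.23 (SE; adjusted p = 0.000732). Younger adrenals had 437 ± 127, 540.0 ± 50.4 and 688 ± 74.9 RPKM at 4, 6 and 12 weeks (SD, n = 4 each), so the 52-week level was the low one of 5, and 78 and 12 weeks did not differ past the threshold (limma adjusted p = 0.399). Cyp11b1, the last enzyme of glucocorticoid synthesis, had 2089.6, 2637, 2769 and 4141 RPKM at 78 weeks, against 1443, 1528, 2536 and 1815 RPKM at 52 weeks, with the third 52-week library inside the 78-week range. It was called (adjusted p = 0.0474), but not when any 1 of 6 libraries was left out, with adjusted p between 0.0681 and 0.12. Cyp11b1 and Cyp11b2 are close copies, and their reads may be shared in part.

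The entry steps did not pass: Star, which carries cholesterol into mitochondria, had 2412 ± 523 RPKM at 78 weeks and 1745 ± 326 RPKM at 52 weeks (adjusted p = 0.0683), and Cyp11a1, which cleaves its side chain, 1008 ± 191 and 885 ± 175 RPKM (adjusted p = 0.421). Star was called higher without the first 78-week library (adjusted p = 0.0234) or the third 52-week library (0.0469). Of the falls, Mrap, the accessory protein of the ACTH receptor, had 77.6, 97.6, 119 and 180.4 RPKM at 78 weeks, against 221, 179.6, 235 and 226 RPKM at 52 weeks (adjusted p = 0.00973), with the fourth old adrenal just above the second 52-week adrenal. Nr5a1, which encodes the master regulator SF-1, had 238, 135, 126 and 139 RPKM at 78 weeks, against 257, 209, 283 and 241 RPKM at 52 weeks, with the first old adrenal inside the 52-week range (adjusted p = 0.0198; 0.051 to 0.054 without the second or the third 78-week library or the third 52-week library). None of the 5 falls was called under the number-range term.

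Zona glomerulosa genes other than Cyp11b2 did not rise with it. Of 17 tested, 1 rose and 4 fell: the angiotensin receptor Agtr1a averaged 77.5 ± 3.38 RPKM at 78 weeks and 109 ± 16.8 RPKM at 52 weeks (adjusted p = 0.00508), and the WNT effector Lef1, the ligand Wnt4 and the potassium channel Kcnk3 were also lower (adjusted p = 0.00606 for Lef1, 0.0265 for Wnt4 and 0.0107 for Kcnk3). These 4 falls stand beside 25.2% of all genes called lower, and none of them was called under the number-range term. At a common sum 2 of the 17 rose and 1 fell. Wnt4 lost the call without the second, the third or the fourth 52-week library (adjusted p 0.0583 to 0.0701). Zona fasciculata genes had 1 rise, Cyp11b1, of 4, and WNT pathway genes 5 rises and 3 falls of 20, with 13 rises at a common sum and 3 rises when any 1 of 6 libraries was left out. X-zone genes had 1 rise of 2 tested. Thrb, thyroid hormone receptor beta, had 5.35, 6.96, 6.68 and 6.14 RPKM at 78 weeks, against 4.82, 3.94, 4.69 and 4.04 RPKM at 52 weeks (adjusted p = 0.00408), with no overlap, but its log2 difference was -0.32 under the number-range term (adjusted p = 0.697) and its 12-week mean was 11.6 ± 3.33 RPKM. Akr1c18, the progesterone-metabolising enzyme that marks the X-zone, had 8.70, 6.72, 16.1 and 20.7 RPKM at 78 weeks, against 1.77, 14.1, 10.9 and 8.55 RPKM at 52 weeks (adjusted p = 0.345), and means of 3268, 1413 and 1417 RPKM at 4, 6 and 12 weeks. Its log2 difference turned from 0.64 to -6.47 under the number-range term (limma adjusted p = 0.0641), which takes the sex difference to be equal at all ages. Pik3c2g, a second X-zone gene, was at most 0.01998 RPKM at 78 weeks and 0.0182 RPKM at 52 weeks, under the level tested at these ages.

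Some cholesterol synthesis genes rose against 52 weeks, and none rose against 12 weeks. Of 23 tested, 9 rose, 1 fell and 13 did not pass, beside 25.8% of all genes called higher, with a median log2 difference of 0.41, and 17 rose and 0 fell at a common sum. Hmgcs1, which makes the HMG-CoA from which sterols are built, had 23.1, 24.5, 29.2 and 28.6 RPKM at 78 weeks, against 15.2, 15.1, 20.4 and 17.6 RPKM at 52 weeks (adjusted p = 0.00246). Srebf2, the transcription factor that drives the pathway, averaged 13.6 ± 1.64 RPKM at 78 weeks and 8.81 ± 1.18 RPKM at 52 weeks (adjusted p = 0.0022). Younger adrenals were higher than both for Hmgcs1, at 46.5 ± 22.8, 56.1 ± 26.4 and 60.4 ± 17.4 RPKM at 4, 6 and 12 weeks. Between 78 and 12 weeks 0 of 23 rose and 3 fell, and under the number-range term 1 rose (Srebf2) and 0 fell, with the Hmgcs1 difference turned to -0.28.

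Of 24 genes on the cholesterol list 17 have a RefSeq promoter (GRCm38.p6), and 1 of them, Hmgcs1, holds the sterol regulatory element TCACNCCAC on either strand, where N is any base. That motif occurs in 408 of 32851 promoters (1.24%). The Hmgcs1 promoter, chr13:119690101-119690400 on the plus strand, is shown because Hmgcs1 encodes an early enzyme of the pathway and rose, with the match, 137 to 129 bases before the start, in capitals.
Hmgcs1: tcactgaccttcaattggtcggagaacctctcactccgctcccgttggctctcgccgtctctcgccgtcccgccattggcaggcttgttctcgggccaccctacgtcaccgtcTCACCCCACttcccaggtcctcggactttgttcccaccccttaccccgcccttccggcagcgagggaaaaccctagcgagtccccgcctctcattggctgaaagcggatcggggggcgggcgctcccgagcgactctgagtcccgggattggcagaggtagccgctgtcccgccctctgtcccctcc

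Chromaffin cell genes were lower at 78 weeks as a group. Of 18 tested, 14 fell, 0 rose and 4 did not pass, with a median log2 difference of -0.59, beside 25.2% of all genes called lower. The count was 5 at a common sum, 12 on the deposited scale and 12 with the length trend removed, and between 13 and 15 with 1 library left out, with 0 rises in all of these. Tyrosine hydroxylase Th, the first enzyme of catecholamine synthesis, had 226, 187, 211 and 187 RPKM at 78 weeks, against 394, 329, 241 and 384 RPKM at 52 weeks (adjusted p = 0.00501). The chromogranins are the main soluble proteins of the granules. Chga had 745, 602, 602 and 452 RPKM at 78 weeks, against 1333, 1039.8, 988 and 999.98 RPKM at 52 weeks (adjusted p = 0.00227), and Chgb 777, 787, 741 and 769 RPKM at 78 weeks, against 1597, 1158, 956 and 1247 RPKM at 52 weeks (adjusted p = 0.00499). In all 3 the ages did not overlap.

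The rest of the catecholamine pathway followed in part. Dbh, which makes noradrenaline, averaged 96.8 ± 8.14 RPKM at 78 weeks and 154 ± 22.9 RPKM at 52 weeks (adjusted p = 0.00178), and the granule electron carrier Cyb561 39.3 ± 3.15 and 61.1 ± 7.04 RPKM (adjusted p = 0.000723). Pnmt, which turns noradrenaline into adrenaline, had 266, 109.9, 131 and 165 RPKM at 78 weeks, against 193, 229.7, 207 and 191 RPKM at 52 weeks and did not pass (adjusted p = 0.225). The first old adrenal was the highest of the 8 for Pnmt, and without it the gene was called lower (adjusted p = 0.00696). Scg2, secretogranin 2, another granule protein, overlapped between ages at 423 ± 49.3 RPKM at 78 weeks and 438 ± 113 RPKM at 52 weeks (adjusted p = 0.913).

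Younger adrenals had lower mean levels of Th and Chga than either late age. Th averaged 81.7 ± 17.3, 112 ± 38.1 and 109.6 ± 29.1 RPKM at 4, 6 and 12 weeks, and Chga 339 ± 13.0, 351 ± 64.5 and 428 ± 97.8 RPKM. Between 78 and 12 weeks 4 of 18 chromaffin genes were higher at 78 weeks and 0 lower, with Th at a log2 difference of 0.91 (limma adjusted p = 0.0199). Under the number-range term 3 of 18 fell and 0 rose, and Th and Chga were not among them (adjusted p = 0.869 for Th and 0.239 for Chga). Schwann and nerve cell genes had 1 rise and 2 falls of 10.

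The cyclic AMP response element, spelled TGACGTCA, was looked for on both strands in the promoters of chromaffin genes. Of 13 with a RefSeq entry, 5 hold it (Cartpt, Chgb, Scg2, Slc18a2 and Th), beside 588 of all 32851 promoters (1.79%). The promoters of 3 of them (GRCm38.p6, 250 bases before the start and 50 after) are shown with the element in capitals, from genes that fell (Th and Chgb) and a gene that did not pass (Scg2). The element lies 45 to 38 bases before the start of Th (chr7:142899946-142900245, minus strand), 72 to 65 before that of Chgb (chr2:132781392-132781691, plus strand) and 68 to 61 before that of Scg2 (chr1:79439977-79440276, minus strand).
Th: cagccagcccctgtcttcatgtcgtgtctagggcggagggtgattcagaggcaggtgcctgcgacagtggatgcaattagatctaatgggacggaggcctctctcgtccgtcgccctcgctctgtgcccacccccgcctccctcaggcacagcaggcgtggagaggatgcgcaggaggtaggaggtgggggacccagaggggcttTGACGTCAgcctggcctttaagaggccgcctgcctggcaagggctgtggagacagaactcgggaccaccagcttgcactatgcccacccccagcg
Chgb: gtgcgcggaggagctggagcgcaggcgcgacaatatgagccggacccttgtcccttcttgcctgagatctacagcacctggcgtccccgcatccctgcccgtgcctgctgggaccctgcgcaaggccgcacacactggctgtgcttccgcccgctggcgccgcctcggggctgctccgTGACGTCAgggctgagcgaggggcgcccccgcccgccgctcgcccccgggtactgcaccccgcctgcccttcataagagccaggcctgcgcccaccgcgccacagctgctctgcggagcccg
Scg2: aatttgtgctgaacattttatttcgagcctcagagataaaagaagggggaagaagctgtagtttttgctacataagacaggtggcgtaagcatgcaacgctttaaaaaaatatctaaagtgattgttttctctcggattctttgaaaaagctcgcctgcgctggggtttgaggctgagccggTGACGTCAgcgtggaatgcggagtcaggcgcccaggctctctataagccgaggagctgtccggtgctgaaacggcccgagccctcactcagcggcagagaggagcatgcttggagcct

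**Figure D4:**
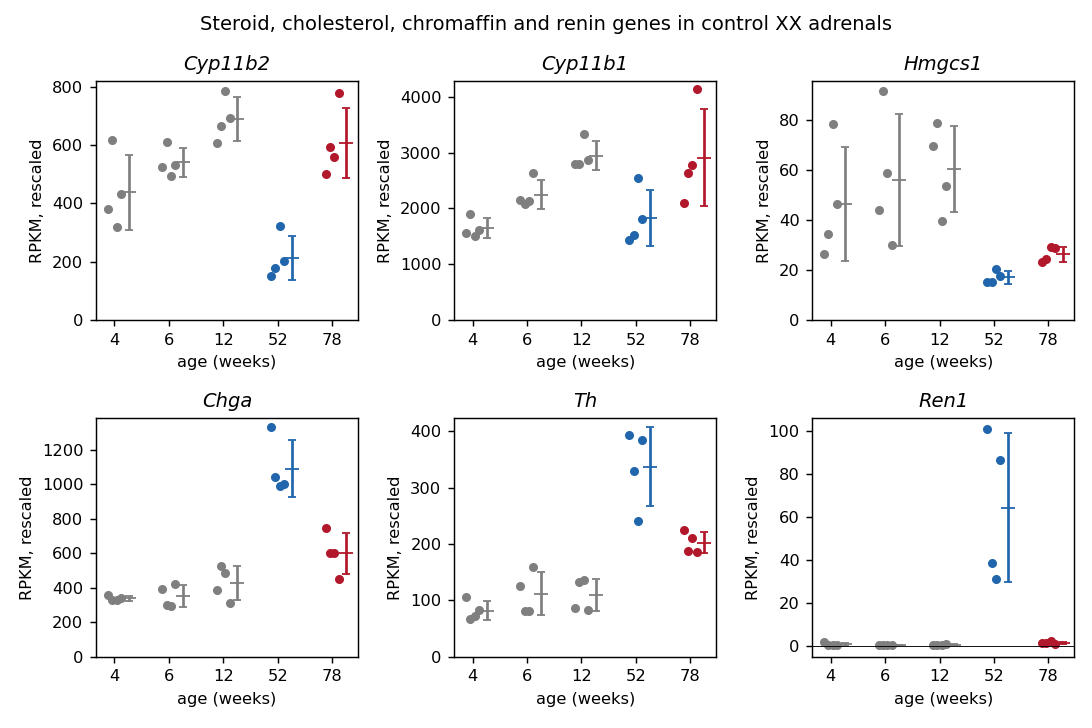
Levels of 6 genes (RPKM, rescaled) in control XX adrenals by age in weeks, 1 point per library with mean and SD (n = 4 per age), 78 weeks in red, 52 weeks in blue and younger ages in grey. By their means, Cyp11b2 is low and Ren1, Chga and Th are high at 52 weeks relative to every other age, and Hmgcs1 is lower at both late ages than in most younger adrenals.

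Renin had the largest fall among the protein-coding genes named by size. Ren1, which encodes the protease that starts angiotensin formation, on chr1:133350510-133360325, had 1.14, 1.21, 2.15 and 1.03 RPKM at 78 weeks, against 101, 38.7, 31.3 and 86.4 RPKM at 52 weeks. The log2 difference was -4.63 ± 0.36 (SE; adjusted p = 2.21e-05), a 46.5-fold lower mean at 78 weeks, and it remained under the number-range term (-4.32, adjusted p = 5.39e-06). The means at 4, 6 and 12 weeks were 0.692 ± 0.757, 0.310 ± 0.153 and 0.422 ± 0.196 RPKM. Znrf3 cKO XX adrenals at 52 weeks, also from the lower number range, had a mean of 0.561 RPKM (0.409 to 0.837), and no library outside the 52-week control XX group exceeded 10.5 RPKM. Between 78 and 12 weeks Ren1 was higher at 78 weeks (log2 difference 0.73, adjusted p = 0.0261). Markers of kidney, a renin-producing organ next to the adrenal, gave 2 genes that could be tested of 12, neither called, and 0 passed an unadjusted p under 0.05, although Aqp1, 1 of the 2, was called higher at a common sum (adjusted p = 0.0478). Between 78 and 12 weeks 2 of 2 kidney markers tested were higher at 78 weeks, beside 3.92% of all genes. The water channel gene Aqp1 was higher there by a log2 difference of 0.89 (limma adjusted p = 0.0457). The kidney markers Umod and Kap were at 0 in all 8 libraries.

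The chemokine gene Ccl27b had a similar pattern, with 12.6, 6.48, 11.8 and 8.92 RPKM at 78 weeks, against 52.8, 52.0, 52.0 and 56.4 RPKM at 52 weeks (adjusted p = 1.4e-05) and 12.7 RPKM (9.43 to 17.7) in 52-week Znrf3 cKO XX adrenals. Its reads may be shared with near-identical neighbours. Gt(ROSA)26Sor, the noncoding RNA of the Rosa26 locus, had 6.35, 12.5, 8.62 and 3.94 RPKM at 78 weeks, against 0.299, 0.449, 0.565 and 0.590 RPKM at 52 weeks (adjusted p = 0.000115), and 3.41 RPKM in 52-week Znrf3 cKO XX adrenals. It was not called under the number-range term (adjusted p = 0.119). The mTmG reporter sits in that locus, and which control mice carried it is not given in the sources used here. In the 12 younger adrenals the level ran between 0.444 and 15.9 RPKM, and 1 of the 12-week libraries was within the 52-week range.

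Other large falls included noncoding RNAs and apolipoprotein genes. Rn7sk, an RNA that restrains transcription elongation, averaged 16.3 ± 2.23 RPKM at 78 weeks and 111 ± 53.7 RPKM at 52 weeks (adjusted p = 0.000226). Rnu1b1, a U1 spliceosomal RNA of a repeated family, averaged 0.135 ± 0.102 and 5.04 ± 2.64 RPKM (adjusted p = 0.000393), and the entries Mir6236 and Lars2, for a microRNA hairpin and a mitochondrial leucyl-tRNA synthetase, fell by 2.15 and 1.92 on the log2 scale. Neither Rn7sk nor Mir6236 nor Lars2 was called under the number-range term. Over all libraries of the upper number range, Rn7sk ran from 7.44 to 1991 RPKM, Mir6236 from 77.9 to 11619 RPKM and Lars2 from 13.4 to 1524 RPKM. Apoc1, an apolipoprotein that binds lipoprotein particles, had 69.0, 71.6, 81.9 and 102 RPKM at 78 weeks, against 436, 368, 565 and 400.2 RPKM at 52 weeks (adjusted p = 8.38e-06), and its neighbour Apoc4 averaged 19.7 ± 2.13 and 76.9 ± 8.19 RPKM (adjusted p = 1.8e-06). Neither was called under the number-range term (adjusted p = 0.933 for Apoc1 and 0.379 for Apoc4), and Apoc1 lost the call in one fit over the 5 control XX ages (adjusted p = 0.0619). Mgst2, a microsomal glutathione transferase, had 4.58, 4.68, 4.35 and 5.00 RPKM at 78 weeks, against 16.2, 20.6, 27.8 and 22.1 RPKM at 52 weeks (adjusted p = 1.09e-05). It was the one of these called lower both under the number-range term and between 78 and 12 weeks. The antitrypsin genes Serpina1a, Serpina1b and Serpina1d, near-identical copies made mainly in liver, were low in 3 old adrenals and near the 52-week level in the first, as in Serpina1b with 4.12, 0.0702, 0.224 and 0.244 RPKM at 78 weeks, against 6.25, 6.27, 6.58 and 12.1 RPKM at 52 weeks (adjusted p = 0.00363). Liver markers had 0 rises and 1 fall of 4 tested, and the single pancreas marker tested was called lower.

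Among the other large rises, Kctd14 and Aldh1a1 were lowest in the fourth old adrenal and highest in the second 52-week adrenal, the libraries that were lowest and highest within their age for Gata4. Kctd14, a tetramerisation domain protein, had 67.8, 67.1, 30.3 and 20.8 RPKM at 78 weeks, against 5.21, 12.4, 5.45 and 1.99 RPKM at 52 weeks (adjusted p = 0.0021), and was called under the number-range term and between 78 and 12 weeks, with 1.81 ± 0.885 RPKM at 12 weeks. Aldh1a1, a retinaldehyde dehydrogenase, had 33.0, 52.0, 104 and 13.6 RPKM at 78 weeks, against 4.17, 11.4, 5.12 and 3.74 RPKM at 52 weeks (adjusted p = 0.00431), highest in the third old adrenal, and was not called under the number-range term (adjusted p = 0.128). Gpam, the first enzyme of triglyceride synthesis, averaged 43.4 ± 7.37 RPKM at 78 weeks and 8.33 ± 2.16 RPKM at 52 weeks (adjusted p = 3.13e-05), but 92.7 ± 14.7 RPKM at 12 weeks, so that it was lower at 78 than at 12 weeks (limma adjusted p = 0.00846). Ccdc85b averaged 11.9 ± 3.04 and 1.82 ± 0.240 RPKM (adjusted p = 1.03e-05) and did not differ past the threshold between 78 and 12 weeks (adjusted p = 0.775) or under the number-range term (0.254).

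Capsule and fibroblast genes had 7 rises and 3 falls of 20. The rises were Pdgfra, Dcn, Lum, Col1a1, Col1a2, Col3a1 and Fbn1. Pdgfra, the platelet-derived growth factor receptor of mesenchymal cells, had 24.5, 34.8, 20.3 and 14.5 RPKM at 78 weeks, against 6.09, 19.0, 7.09 and 4.34 RPKM at 52 weeks (adjusted p = 0.0181). The second 52-week library was high and the fourth 78-week library low, as for Gata4. Col1a1, a fibrillar collagen chain, had 9.92, 12.7, 13.4 and 4.21 RPKM at 78 weeks, against 3.05, 7.59, 2.82 and 3.49 RPKM at 52 weeks (adjusted p = 0.0368), with the same pattern and with a call that ended when any 1 of 6 libraries was left out (0.0707 to 0.0914). Of the list, 4 genes rose without the first 78-week library, 3 without the second or the third, 2 without the first or the third 52-week library and 3 without the fourth. Pdgfra was called under the number-range term and between 78 and 12 weeks. Thy1, a surface glycoprotein of fibroblasts and of neurons, averaged 4.32 ± 0.961 RPKM at 78 weeks and 7.71 ± 0.767 RPKM at 52 weeks (adjusted p = 0.00162), and the contractile gene Tagln 2.18 ± 0.437 and 3.81 ± 1.11 RPKM (adjusted p = 0.0146). Gli1, the hedgehog target of capsular progenitors, did not pass (adjusted p = 0.764). Endothelial cell genes had 0 rises and 3 falls of 14, with 1 fall when any 1 of 4 libraries was left out and 4 rises and 1 fall at a common sum.

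Fat genes differed between single adrenals. Of 13 adipocyte genes 1 rose and 0 fell, with 5 rises without the second 52-week library, 3 without the third 78-week library and 0 without the fourth 52-week library. Ucp1, the uncoupling protein of brown fat, had 182, 19.0, 9.24 and 174 RPKM at 78 weeks, against 22.6, 7.40, 4.82 and 7.17 RPKM at 52 weeks (adjusted p = 0.0675; 0.0165 without the third 78-week library). Cidea, a lipid droplet protein of brown fat, had 82.1, 18.4, 12.7 and 62.7 RPKM at 78 weeks, against 10.9, 10.2, 6.63 and 3.38 RPKM at 52 weeks (adjusted p = 0.0181; 0.0503 without the fourth 52-week library). The first and the fourth old adrenals stood out for both, the same 2 that were highest for mast cell genes and Ccl8. Adipoq, made by all fat cells, did not follow, at 93.5, 39.9, 52.5 and 66.7 RPKM at 78 weeks, against 20.1, 144, 56.0 and 45.9 RPKM at 52 weeks. The second and the third old adrenals, with Ucp1 inside the 52-week range, had mast cell sums of 30.9 and 44.8 RPKM, above every 52-week library. For Cidea, these 2 adrenals lay above the 52-week range too. The part of fat in the mast cell difference was not tested.

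Senescence and cell cycle genes changed little as lists. Of 18 senescence genes 2 rose and 4 fell, against 7 and 2 at a common sum, and of 24 cell cycle genes 2 rose and 1 fell. Cdkn2a, which encodes the cell cycle inhibitors p16 and p19ARF, had 4.38, 4.23, 4.64 and 3.31 RPKM at 78 weeks, against 1.55, 2.35, 1.86 and 2.50 RPKM at 52 weeks (adjusted p = 0.0012), 2.00-fold higher with no overlap. Its means at 4, 6 and 12 weeks were 0.804 ± 0.290, 0.982 ± 0.273 and 1.19 ± 0.281 RPKM, and it was called higher under the number-range term (log2 difference 1.10) and between 78 and 12 weeks (1.23). Its means stood in order of age over the 5 groups, with overlap between neighbouring ages up to 52 weeks. Cdkn1a, which encodes p21, did not pass (10.4 ± 2.23 RPKM at 78 weeks, 9.17 ± 1.342 RPKM at 52 weeks, adjusted p = 0.446), nor did Glb1, the lysosomal galactosidase (adjusted p = 0.902), nor the proliferation marker Mki67 (adjusted p = 0.419). Trp53 fell to 14.4 ± 0.671 RPKM at 78 weeks, against 20.9 ± 0.215 RPKM at 52 weeks (adjusted p = 0.000112), a fall of 0.51 on the log2 scale. The cytokine gene Il1a stayed under the level tested. Igfbp7, a secreted growth factor binding protein, averaged 155 ± 12.8 and 298 ± 40.8 RPKM (adjusted p = 0.000205). Of the signatures used in the study, the SenMayo senescence list had 21 rises and 14 falls of 88 (39.8% called). The DNA replication list had 8 rises and 10 falls of 33 (54.5% called), beside 51.0% of all genes called. At a common sum these lists had 40 rises and 6 falls and 15 rises and 1 fall.

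Genes that respond to handling, time of day and hormones moved in both directions. Immediate early genes had 1 rise and 6 falls of 22, with 3 falls without the fourth 52-week library and with 6 rises and 3 falls at a common sum. Fos had 3.74, 2.58, 2.69 and 1.56 RPKM at 78 weeks, against 9.90, 11.6, 6.46 and 21.6 RPKM at 52 weeks (adjusted p = 0.00168), and Dusp1, a phosphatase induced with it, averaged 9.04 ± 0.587 and 22.1 ± 10.8 RPKM (adjusted p = 0.0139). The fourth 52-week adrenal was the highest of the 8 for both. Circadian clock genes had 5 rises and 1 fall of 19, beside 25.8% of all genes called higher and 25.2% lower. Among the rises was the output factor Tef at 20.5 ± 4.91 RPKM at 78 weeks and 12.0 ± 2.52 RPKM at 52 weeks (limma adjusted p = 0.0124). Of 13 glucocorticoid-induced genes 4 rose and 3 fell. Fkbp5, a cochaperone of the glucocorticoid receptor, averaged 11.9 ± 1.42 RPKM at 78 weeks and 7.04 ± 0.695 RPKM at 52 weeks (adjusted p = 0.000496), and Klf9, a transcription factor, 19.9 ± 4.47 and 8.20 ± 0.970 RPKM (adjusted p = 0.000243). Fkbp5 was also higher at 78 than at 12 weeks, whereas Klf9 was not called there. Heat shock genes had 3 rises and 4 falls of 30 and oxidative stress genes 3 rises and 6 falls of 25, and both lists turned at a common sum, to 12 rises and 1 fall and to 7 rises and 2 falls. Replication-dependent histone genes, whose RNAs lack a poly(A) tail, had 12 rises and 6 falls of 25, but 0 and 0 under the number-range term. The times of day of collection are not given in the sources used here.

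**Figure D5:**
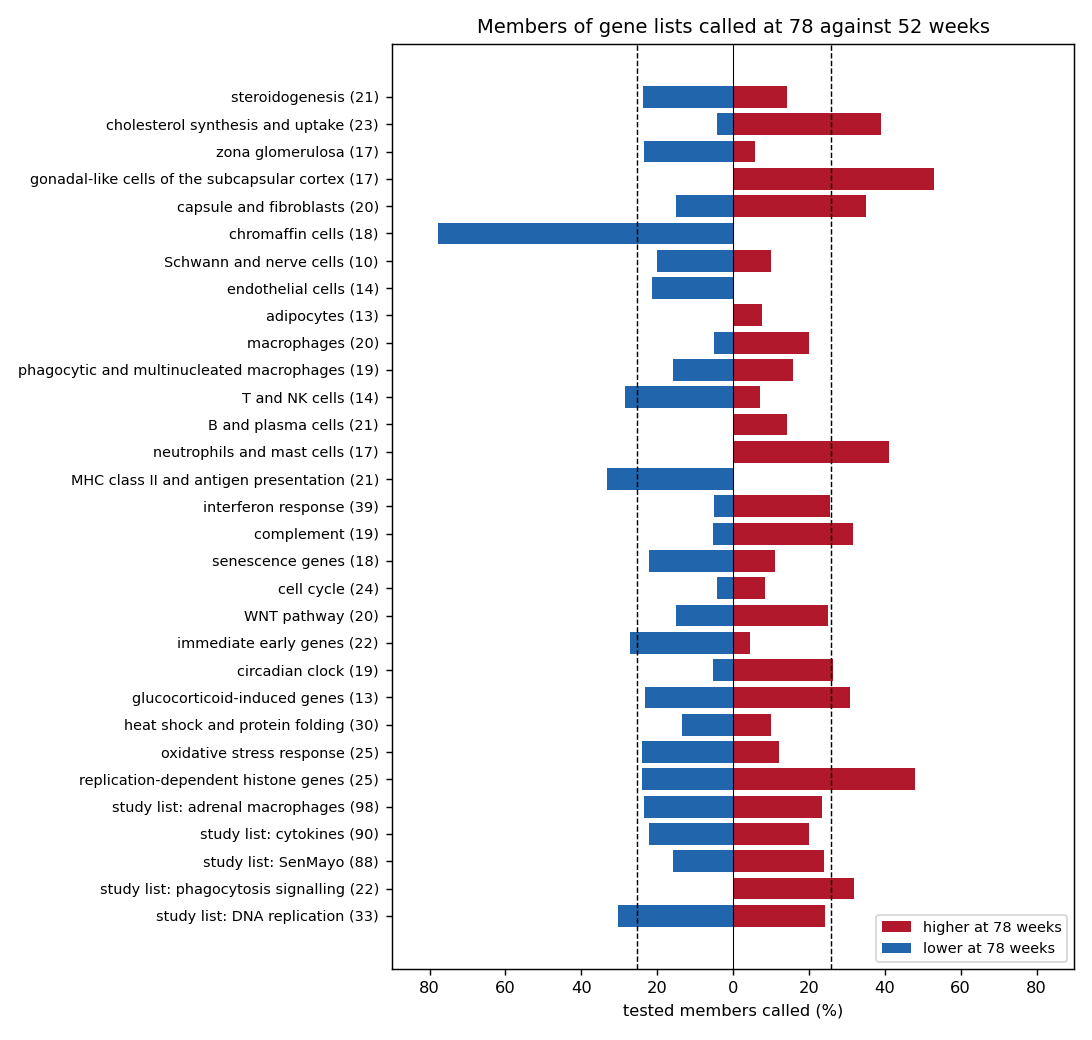
Share of tested members (%) called higher (red, to the right) and lower (blue, to the left) at 78 weeks for each list with at least 10 tested genes, whose number is in parentheses, with dashed lines at the shares of all tested genes (25.8% higher and 25.2% lower). Chromaffin cells lie far beyond the line on the lower side, and gonadal-like cells, replication-dependent histone genes, neutrophils and mast cells, and cholesterol synthesis lie farthest beyond the line on the higher side.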

How the data were processed

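RNA sequencing libraries were made from whole adrenals with a stranded poly(A) kit and read from one end. As deposited, the values are RPKM, which the authors made from reads trimmed with cutadapt 3.2, aligned to mm10 with HISAT2 2.2.1 and counted per gene, after bcl2fastq 2.17.1.14 and FastQC 0.11.7. DESeq2 1.34.0 is also named in the submitters' processing notes. The table holds 54838 genes and 73 libraries. The last 4 columns, PRVL86 to PRVL89, are identical to 4 others and were not used. The 78-week and 52-week libraries entered the deposited scaling with different sets, so the 8 libraries were rescaled together by the median of ratios. Between 98.4% and 98.6% of values came out as whole reads within 0.02, which gave the depth. No value lay above 0 in any of 37 mitochondrial genes, and 4 nuclear mitochondrial-like genes took 15.8% to 18.6% of the summed RPKM at 78 weeks and 19.0% to 22.2% at 52 weeks.

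Log2(RPKM + 1) was fitted with limma 3.58.1 (limma-trend, R 4.3.3) in genes whose mean reached 0.5 RPKM at 1 or both ages, as 78 minus 52 weeks, with Benjamini-Hochberg adjustment over all tested genes and a threshold of 0.05. Fold changes on this scale understate the change of low genes. Means and per-library values are in rescaled RPKM, and ± after a mean is the SD over 4 libraries. Whole reads recovered from the RPKM were also fitted with voom weights. Gene lengths and positions are from GENCODE M21 and promoters from RefSeq. Scripts were tested on simulated data.

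Genes named are up to 15 rises and 15 falls of the largest size among called genes whose mean reached 5 RPKM at the higher age with no overlap between ages and a symbol that is no predicted gene or pseudogene; up to 4 members per list with the smallest p; and fixed genes of identity, steroidogenesis, medulla, macrophages and senescence. Members named beside these (Cyp17a1, Inha, Insl3, Mcpt4, Ms4a2, Kit, Ucp1, Adipoq, S100a9, Col1a1, Aqp1 and others), the sub-lists of mast, neutrophil and B cell genes and the ribosomal protein genes were chosen after their values were seen. The comparison and all lists were chosen with earlier results of these data known. The 17 other settings that were tried cover scaling, pseudocount, filters, fit and each library left out, and 3 more were added after the data were seen. A few genes that the rule selects are not reported here.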

Additional observations from a re-analysis of the deposited data

Results flagged for a closer look

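Within an age, 21 values of named genes lay far from the other 3 libraries, past the critical gap of Dixon's test for 4 values, out of 302 groups of 4 tested, where chance gives about 1 in 20. Several fell in the same library. The fourth 78-week adrenal was highest for the neutrophil genes S100a8 (182.7 RPKM) and Ngp (56.29 RPKM), highest for Pik3c2g (0.01998 RPKM), and lowest for Amhr2 (4.299 RPKM) and Scg2 (349.4 RPKM). The first 78-week adrenal was highest for Serpina1a (3.551 RPKM), Serpina1b (4.124 RPKM), Serpina1d (4.217 RPKM) and Nr5a1 (238 RPKM), the 3 antitrypsin genes being near-identical copies.

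Among 52-week adrenals, the second was highest for the stromal genes Col3a1 (12.4 RPKM), Lum (12.56 RPKM) and Tagln (5.468 RPKM), and for Cxcr6 (0.8295 RPKM) and Il1a (0.1463 RPKM). The first was highest for Chga (1333 RPKM) and Trem2 (1.909 RPKM) and lowest for the mast cell genes Tpsb2 (0.1156 RPKM) and Mcpt4 (0.06235 RPKM). The third was highest for Lef1 (1.691 RPKM), and the fourth for Serpina1b (12.1 RPKM) and Ngp (0.6496 RPKM).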

How the results depend on the processing

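Against 5148 genes higher and 5028 lower at 78 weeks, a common sum gave 9306 and 2092, a filter at a mean of 5 RPKM 2970 and 3739, the term for the number range 1756 and 1167, protein-coding genes only 3492 and 3227, and a log2 difference of at least 1 in size 891 and 527. The fits without each library in turn gave 4393 to 5174 higher and 4385 to 4877 lower. The other settings kept both counts within 1.5 times. Of 147 genes followed, 9 that were called in the main fit or under the number-range term changed direction under that term (log2 difference 0.068 for Aif1, 0.50 for Apoe, 0.14 for B2m, 0.17 for Cd74, 1.19 for H2-Eb1, 0.24 for Fdxr, -0.065 for Cxcr6, -0.32 for Thrb and -0.28 for Hmgcs1). At a common sum 2 changed direction in the same way (0.042 for Mdm2 and 0.13 for Pcna), and a further 57 genes lost the call under the number-range term. Genes called in neither fit are not counted here. Among them is Akr1c18, whose log2 difference went from 0.64 to -6.47 under the number-range term. The cause was not tested, and the number-range term assumes an equal sex difference at all ages. Of the 115 called genes among those followed, 19 lost the call without at least 1 library. No paired analysis was possible because the labels give no replicate numbers. Genes with a mean under 0.5 RPKM at both ages were not tested, so their levels say nothing of absence.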
